A study of Mus musculus with 12 samples.

Results

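IL-25+ epithelial cells of the mouse gallbladder were compared with IL-25+ epithelial cells of the mouse small intestine, over every gene of the deposited table of RNA-seq read counts. The comparison uses 6 of the series' 12 libraries, taken by the tissue and the sort gate in their column names: 3 of IL-25+ gallbladder cells (GB-pos) and 3 of IL-25+ small intestinal cells (SI-pos). The 6 libraries of IL-25- epithelium, 3 from gallbladder (GB-neg) and 3 from small intestine (SI-neg), entered the same model and serve as the reference for the neighbouring epithelium. All 4 groups are primary cells of Flare25 mice, which carry a red fluorescent protein that reports transcription of Il25; epithelium was released with EDTA and DTT, and living single EpCAM+ cells were sorted as RFP+ (IL-25+) or RFP- (IL-25-). Every gallbladder library, of both gates, is labelled as coming from mice given HDM AF647 (house dust mite) 1 day before collection. The small intestinal libraries carry no such label, and the protocol field of all libraries names homeostasis. Tissue and this label therefore cannot be told apart in any value below. The age and sex of the mice, the number of mice per library and whether libraries came from separate mice are not given in the sources used here, so p-values measure the spread between these samples, which may be technical.

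Tuft cells are rare chemosensory epithelial cells whose formation depends on the transcription factor POU2F3. They read luminal molecules through G protein-coupled receptors and a taste-type cascade that ends in the cation channel TRPM5, and they are the main epithelial source of the cytokine IL-25. In the small intestine, succinate sensed through SUCNR1 leads tuft cells to release IL-25 and leukotrienes, which act on group 2 innate lymphoid cells in the lamina propria. The gallbladder and bile ducts hold tuft cells too, in an epithelium that contacts bile instead of food and a dense microbiota.

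Total counts ran from 23703449 to 30957874 in GB-pos and from 28546273 to 29709243 in SI-pos. Mitochondrially encoded transcripts took 7.13% to 8.83% of counts in GB-pos and 12.1% to 17.2% in SI-pos. The sorted cells carried the labelled identity: Trpm5 stood at 4413, 5027 and 4234 CPM, counts scaled to the library total, in GB-pos and 4758, 5311 and 5287 CPM in SI-pos, against a mean of 23 CPM in GB-neg and 34.3 CPM in SI-neg. Transcripts typical of surrounding cells were also present, unequally by tissue and by cell type. For 33 enterocyte genes the median level in SI-pos was 35.8%, 31.9% and 24.2% of that in SI-neg. The summed level of all 45 enterocyte genes was 18853 to 21345 CPM in SI-pos, 1330 to 1516 CPM in GB-pos and 27967 to 44264 CPM in SI-neg. That sum includes Fabp1, an abundant gene that, as given below, was higher in SI-pos than in SI-neg in every library. For 12 gallbladder epithelial genes the median level in GB-pos was 7.29%, 11.6% and 9.04% of that in GB-neg. Both sets were chosen for at least 100 CPM in the IL-25- group used as reference, and the 12 also for being higher there than in SI-neg. Over the libraries, the quartiles of single genes ran from 19.3% to 39.4% for the enterocyte set in SI-pos. For the gallbladder set in GB-pos they ran from 5.17% to 22.4%. Medians in SI-pos 1, 2 and 3 against SI-neg were 0.547%, 1.02% and 2.22% for 7 goblet genes. They were 1.17%, 0.806% and 5.12% for 6 Paneth genes and 3.77%, 0.085% and 0.238% for 9 enteroendocrine genes. For 8 T cell genes they were 36.2%, 6.43% and 159%. Whether the IL-25+ cells themselves made enterocyte transcripts was not tested. In bulk libraries such as these, fewer cells of a type and less RNA per cell cannot be told apart. T cell transcripts were uneven within SI-pos, with Cd8a at 0.641, 0.281 and 8.43 CPM against 0.0290, 0 and 0 CPM in GB-pos. Among the references, the library GB-neg 1 held intestinal transcripts: Apoa1, which encodes an enterocyte apolipoprotein, stood at 122, 2.01 and 1.59 CPM across GB-neg 1, 2 and 3.

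The IL-25+ cells of the organs differed widely. Of 16636 genes with enough counts to test, 3938 (23.7%) passed an adjusted p of 0.05 in edgeR's quasi-likelihood test with Benjamini-Hochberg adjustment, 1753 (10.5%) higher in GB-pos and 2185 (13.1%) higher in SI-pos. Of these, 1036 were at least 4-fold higher in GB-pos and 1140 at least 4-fold higher in SI-pos as fitted. The 3 libraries of one group did not overlap with the 3 of the other for 6964 of the tested genes (41.9%). The split of the calls depended on scaling: 44.5% were higher in GB-pos with the trimmed mean of M-values, 51.5% with relative log expression factors and 52.6% when the 6 IL-25+ libraries were fitted alone. The median log2 difference over all tested genes was -0.09, and relative log expression factors moved it by 0.11. IL-25- epithelium differed by tissue about as often, with 4099 genes called between GB-neg and SI-neg (24.6%). Of the 3938 genes, 1796 were also called in the same direction between the IL-25- groups, 180 in the opposite direction, and 1962 were not called there. The tissue difference in IL-25+ cells differed from that in IL-25- cells for 1536 genes (9.23%) by the interaction term of the same model, which includes 922 of the 3938.

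Called genes were set beside the IL-25- level of the same tissue. Over all tested genes the median level was 89.2% of GB-neg in GB-pos and 93.5% of SI-neg in SI-pos. A mean below that of the IL-25- group was therefore common among all tested genes as well. The shares of all tested genes at the cuts below were not counted. Of the 1753 genes higher in GB-pos, 343 (19.6%) had a GB-pos mean at least 4 times that of GB-neg, and 863 (49.2%) had a GB-pos mean below that of GB-neg. A group of 182 (10.4%) lay at or below 12% of GB-neg, a cut placed above the 11.6% that the 12 gallbladder epithelial genes reached in GB-pos 2. Of the 2185 genes higher in SI-pos, 364 (16.7%) had an SI-pos mean at least 4 times that of SI-neg, and 992 (45.4%) had an SI-pos mean below that of SI-neg. A group of 529 (24.2%) lay at or below 40% of SI-neg, a cut placed above the 35.8% that enterocyte genes reached in SI-pos 1. Without the shares of all tested genes at these cuts, neither count can be read as an excess. The part of neighbouring epithelium in these genes was not tested gene by gene.

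**Figure D1:**
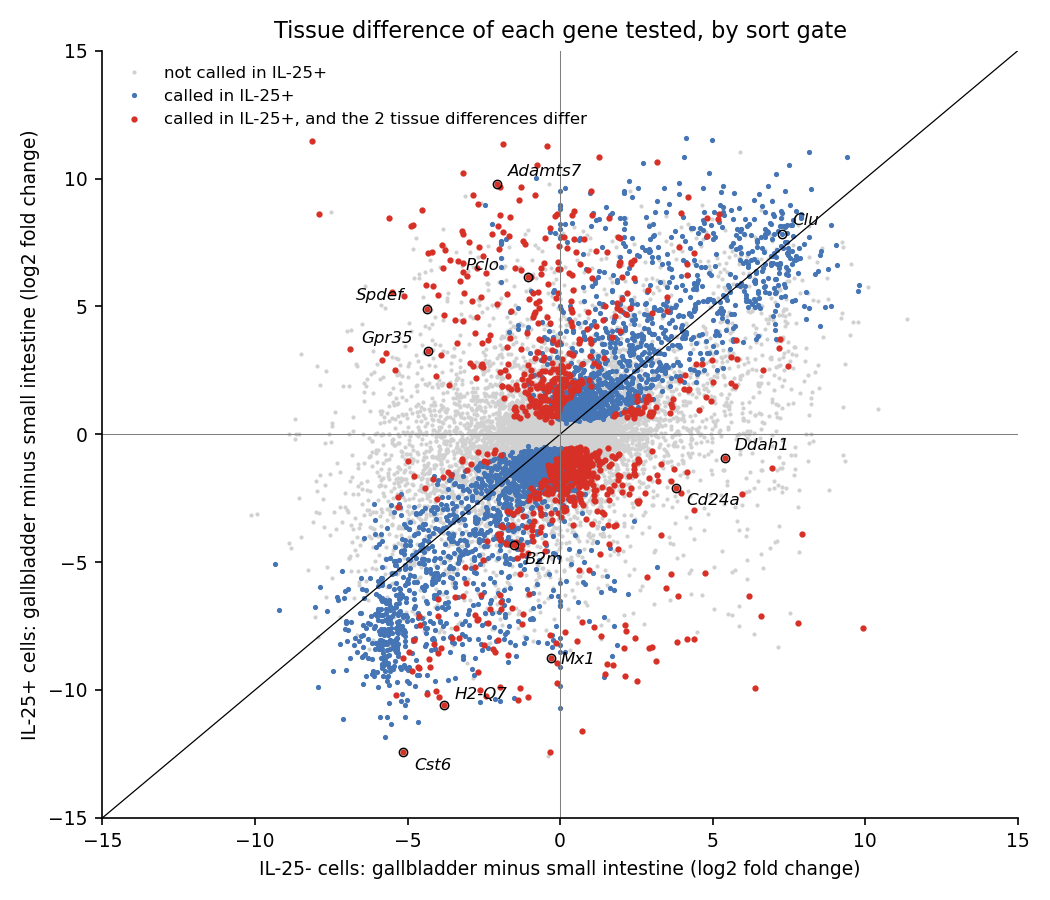
Each point is 1 of the tested genes; the x axis is its log2 difference GB-neg minus SI-neg and the y axis its log2 difference GB-pos minus SI-pos, both fitted by edgeR, with colour marking genes called between GB-pos and SI-pos and those also called by the interaction term. Of genes called in both gates, 1796 had the same direction and 180 the opposite one. Gpr35, Pclo and Spdef lie above the diagonal of equal differences and B2m and H2-Q7 below it.

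Of 35 tuft identity genes tested, 3 were higher in GB-pos, 8 were higher in SI-pos and 24 did not pass (31.4% called beside 23.7% of all genes). The median log2 difference was -0.34 beside -0.09 for all genes. Every list count below is to be read beside the shares of all genes, 10.5% higher in GB-pos and 13.1% higher in SI-pos. Il25, the cytokine gene that the reporter reads, stood at 6.39, 12 and 6.92 CPM in GB-pos and 6.38, 18.2 and 14.6 CPM in SI-pos, and the groups overlapped (log2 difference -0.63 ± 1.01 SE, adjusted p = 0.7, edgeR). Pou2f3 stood at 975, 1033 and 790 CPM in GB-pos and 879, 1086 and 1184 CPM in SI-pos (log2 difference -0.17 ± 0.46 SE, adjusted p = 0.829). The groups overlapped here as well, as they did for Avil, which encodes the actin-bundling protein advillin of the apical tuft, at 2385, 1917 and 2049 CPM and 2095, 2310 and 2620 CPM. Chat, the choline acetyltransferase gene, stood at 245, 245 and 249 CPM in GB-pos and 351, 391 and 414 CPM in SI-pos. Its groups did not overlap, but the difference of -0.65 did not pass (adjusted p = 0.513). Under 3 of 22 alternatives Chat passed. Dclk1, a kinase gene used widely as a tuft cell marker, stood at 6476, 8215 and 7231 CPM in GB-pos and 3321, 3292 and 3162 CPM in SI-pos. All 3 gallbladder libraries were above all 3 intestinal ones, with a log2 difference of 1.17 ± 0.66 SE that did not pass (adjusted p = 0.236). With the 6 IL-25+ libraries fitted alone, Dclk1 passed (adjusted p = 5.44e-05) and the list counted 7 genes higher in GB-pos and 16 higher in SI-pos.

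Among the 8 tuft identity genes higher in SI-pos, Matk, a kinase gene of haematopoietic cells, showed the largest difference, at 52.6, 45.6 and 17.5 CPM in GB-pos and 1125, 1594 and 1551 CPM in SI-pos (log2 difference -5.21 ± 0.45 SE, adjusted p = 8.77e-06, edgeR). Siglecf, a sialic acid-binding lectin gene, stood at 745, 725 and 578 CPM in GB-pos and 2942, 3300 and 3030 CPM in SI-pos. Neither gene's groups overlapped, and both were far above the IL-25- means of their own tissue, which for Siglecf were 0.655 CPM in GB-neg and 5.85 CPM in SI-neg. Ptpn6, which encodes the phosphatase SHP-1, and Ptpn18, another tyrosine phosphatase gene, were also higher in SI-pos, by log2 differences of -1.02 and -2.56. Cd24a, a surface glycoprotein gene, stood at 2639, 6527 and 5336 CPM in GB-pos and 19281, 20796 and 22284 CPM in SI-pos. In the gallbladder it did not mark the gate, since GB-neg held 5327, 6632 and 8751 CPM. Ascl2, a transcription factor gene of intestinal stem cells, was among the 3 genes higher in GB-pos, at 46.9, 50.3 and 25.7 CPM against 3.55, 1.16 and 3.16 CPM in SI-pos.

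**Figure D2:**
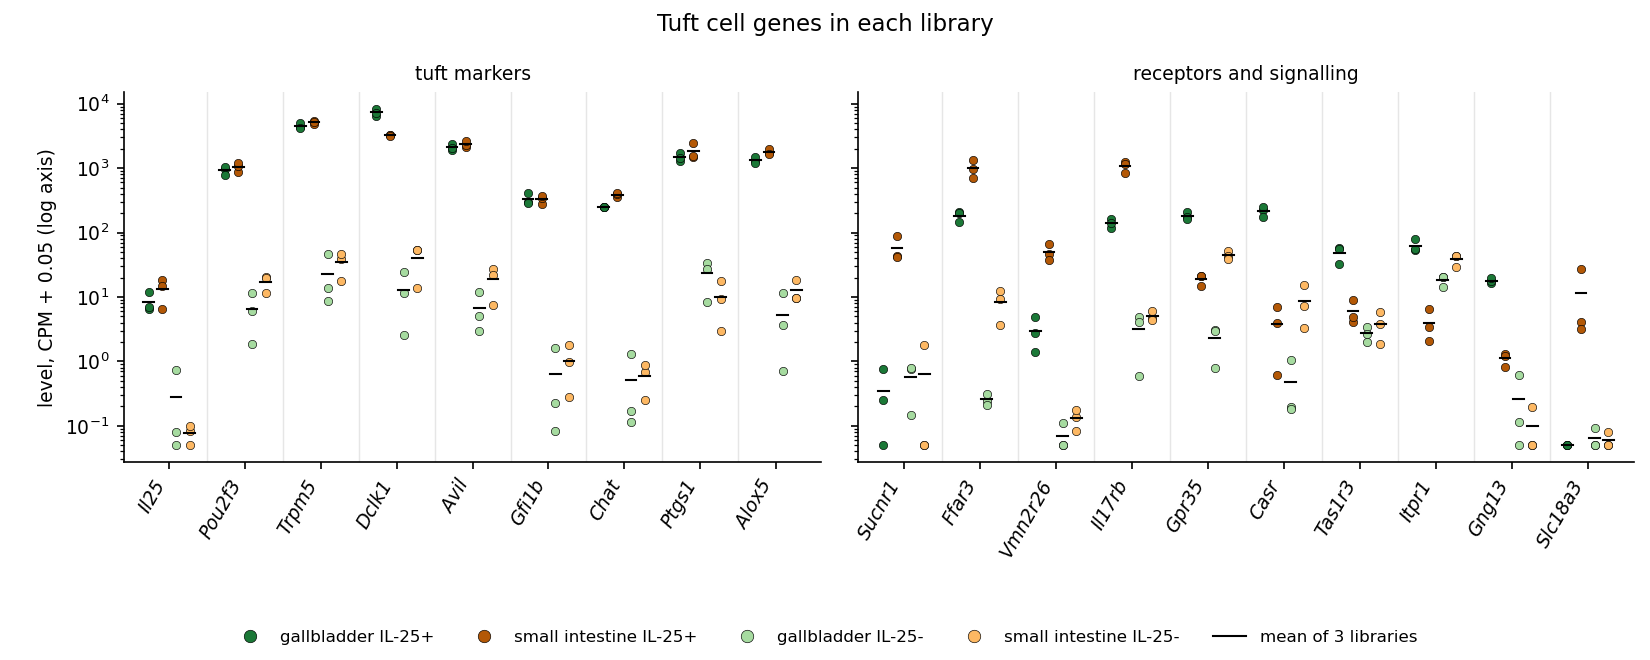
CPM plus 0.05 of tuft cell genes on a log axis in each GB-pos, SI-pos, GB-neg and SI-neg library, 1 point per library, with a bar at the mean of 3. Il25, Pou2f3, Trpm5 and Avil overlap between GB-pos and SI-pos, while Sucnr1, Il17rb and Vmn2r26 are lower and Casr and Gpr35 higher in GB-pos.

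Transcripts of the taste-type cascade were present in both groups, and a few differed, among them genes at its entry and its calcium store. Of 15 tested genes of taste transduction, 4 were higher in GB-pos and 1 in SI-pos (33.3% called beside 23.7% of all genes). The median log2 difference was 0.03. The count in SI-pos was 3 with DESeq2, with limma-voom, with the IL-25+ libraries fitted alone and without GB-neg 1. It was 2 without GB-neg 2 or GB-neg 3. Tas1r3, the shared subunit of the sweet and umami receptors, stood at 57, 55.9 and 32.4 CPM in GB-pos and 8.83, 4.05 and 4.91 CPM in SI-pos (log2 difference 3.03 ± 0.50 SE, adjusted p = 0.000767). Its usual umami partner Tas1r1 was at 0.581, 0 and 0 CPM in GB-pos and 0.226, 1.08 and 0.203 CPM in SI-pos, too few counts to test. Gng13, a G protein gamma subunit gene of taste cells, stood at 16.4, 17.6 and 19.6 CPM in GB-pos and 1.25, 1.16 and 0.770 CPM in SI-pos, a mean 16.8 times higher in the gallbladder. Its call (adjusted p = 0.0275) ended without any 1 of 5 IL-25+ libraries, at up to 0.094, and was kept without GB-pos 1. Gnat3, which encodes the alpha subunit gustducin, overlapped, at 24.8, 13.1 and 29.9 CPM and 20.2, 14 and 49.3 CPM. The inositol trisphosphate receptors, which release stored calcium, did not move together. Itpr1 stood at 52.6, 78.2 and 54.9 CPM in GB-pos and 6.49, 2.01 and 3.37 CPM in SI-pos (log2 difference 3.97 ± 0.42 SE, adjusted p = 3.26e-05). Itpr2 was higher in GB-pos by 1.28, and Itpr3 was lower in GB-pos by a log2 difference of -0.95. Plcb2, the phospholipase gene of the cascade, stood at 193, 199.6 and 147 CPM in GB-pos and 762, 954 and 822 CPM in SI-pos. The groups did not overlap, yet the difference did not pass in the main edgeR fit (adjusted p = 0.101). It passed under 6 of 22 alternatives, and its log2 difference stayed between -2.32 and -2.08 in all of them.

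Receptors for luminal molecules differed in both directions. Of 24 tested receptor genes, 9 were higher in SI-pos and 3 in GB-pos, 50.0% called beside 23.7% of all genes (median log2 difference -0.45). Sucnr1, the succinate receptor gene, stood at 0.203, 0 and 0.700 CPM in GB-pos and 42.7, 41 and 88.1 CPM in SI-pos (log2 difference -7.50 ± 1.80 SE, adjusted p = 0.0128). The groups were far apart, with no gallbladder library above 1 CPM; without GB-pos 1 the adjusted p was 0.0548. Vmn2r26, a vomeronasal-type receptor gene expressed by intestinal tuft cells, stood at 4.88, 2.67 and 1.35 CPM in GB-pos and 46.7, 66.9 and 37.1 CPM in SI-pos (log2 difference -4.08 ± 0.66 SE, adjusted p = 0.000688). The short-chain fatty acid receptors followed the same direction: Ffar3 stood at 205, 147 and 199 CPM in GB-pos and 708, 959.6 and 1319 CPM in SI-pos. Ffar3 nevertheless marked the gate in both organs, since GB-neg held a mean of 0.208 CPM and SI-neg 8.32 CPM. Ffar2 had 1 count in all of GB-pos and 2.15, 8.10 and 6.20 CPM in SI-pos, a count ratio of 533 (95% interval 95.2 to 21119), but SI-neg held as much, 4.24, 10.3 and 4.21 CPM. Cysltr2, a cysteinyl leukotriene receptor gene, had no count in GB-pos and 1.70, 2.89 and 0.527 CPM in SI-pos, at least 56.1-fold higher by counts, with a call that ended without SI-pos 2 and with the replicate number as a block nested in tissue (adjusted p up to 0.0701).

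In the other direction, Casr, the calcium-sensing receptor gene, stood at 220.2, 250.2 and 172 CPM in GB-pos and 3.85, 0.562 and 7.01 CPM in SI-pos (log2 difference 5.81 ± 1.03 SE, adjusted p = 0.00246). GB-neg held a mean of 0.425 CPM, so the transcript belonged to the IL-25+ gate in the gallbladder, whereas SI-pos lay below the 8.49 CPM of SI-neg. Gpr35, a receptor gene for tryptophan-derived and other small acids, stood at 205, 172 and 164 CPM in GB-pos and 21.2, 14.5 and 20.8 CPM in SI-pos (log2 difference 3.26 ± 0.41 SE, adjusted p = 0.000107). The direction was opposite in IL-25- epithelium, where GB-neg held 3.07, 0.738 and 2.89 CPM and SI-neg 52.4, 43.8 and 38.5 CPM, and the interaction passed (adjusted p = 1.49e-05). Adgrg6, an adhesion receptor gene, completed the 3, at 103, 115 and 90.7 CPM in GB-pos and 18.3, 24.5 and 41.2 CPM in SI-pos, with GB-neg as high as GB-pos. Its call ended with no filter on low counts and without GB-pos 2, SI-pos 1 or SI-pos 2, with adjusted p reaching 0.0882.

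Genes of lipid mediators and acetylcholine were called in both directions. Alox5, which encodes the lipoxygenase that starts leukotriene synthesis, stood at 1291, 1464 and 1196 CPM in GB-pos and 1746, 1970 and 1632 CPM in SI-pos, and did not pass (adjusted p = 0.691), although limma-voom called it (0.0362). Ptgs1, Hpgds and Ltc4s, genes of prostaglandin and leukotriene synthesis, gave adjusted p of 0.747, 0.631 and 0.604. Hpgds passed under 2 of 22 alternatives, Ptgs1 and Ltc4s under none. Of the 18 tested genes of eicosanoid and acetylcholine synthesis, 5 were higher in SI-pos and 1 in GB-pos (33.3% beside 23.7% of all genes). The gene higher in GB-pos was Hpgd, whose product degrades prostaglandins, at 191, 281 and 220 CPM against 47.5, 40.8 and 73.6 CPM. Slc18a3, the vesicular acetylcholine transporter gene that lies within Chat on the same strand, had no count in any GB-pos library and stood at 4.04, 3.09 and 26.8 CPM in SI-pos, at least 365-fold higher. Reads from bases that the genes share cannot be told apart. Slc44a4, a choline transporter gene, was also higher in SI-pos, at 139, 195 and 164 CPM against 51.8, 52.4 and 57.4 CPM in GB-pos.

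Among 18 type 2 cytokine and receptor genes tested, 5 were higher in SI-pos and 2 in GB-pos (38.9% beside 23.7% of all genes). The median log2 difference was -1.88. The count in SI-pos fell to 3 without any single one of GB-pos 1, GB-pos 2, SI-pos 1, SI-pos 2 or SI-pos 3. That in GB-pos fell to 1 without any single one of GB-pos 2, GB-pos 3, SI-pos 1, SI-pos 2, SI-pos 3, GB-neg 2, GB-neg 3 or SI-neg 1. Il17rb, which encodes the IL-25 receptor subunit, stood at 162, 116 and 140.2 CPM in GB-pos and 852, 1238 and 1144 CPM in SI-pos (log2 difference -2.95 ± 0.54 SE, adjusted p = 0.0023). The lowest intestinal library was above the highest gallbladder library, and both IL-25- groups had means of 3.14 and 5.03 CPM. Tslp, an alarmin gene, stood at 1.07, 2.23 and 0.754 CPM in GB-pos and 13.6, 11 and 17.8 CPM in SI-pos (adjusted p = 0.0483). The groups did not overlap, but the call ended with relative log expression factors, with the replicate number as a block, and without any 1 IL-25+ or SI-neg library, at up to 0.142. Il33, another alarmin gene, was at 0.0290, 0.223 and 0.0269 CPM in GB-pos and 7.36, 10.8 and 7.95 CPM in SI-pos, where SI-neg held more, 21.6, 41.7 and 19.96 CPM. Il13ra1, a receptor chain gene for IL-4 and IL-13, was higher in GB-pos at 414, 589.9 and 527 CPM against 172, 127 and 132 CPM (log2 difference 1.83 ± 0.18 SE, adjusted p = 1.99e-05). Il4ra, the partner chain gene, did not pass, at 144, 123 and 113 CPM and 73.3, 106 and 99.7 CPM.

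Intestinal tuft cells are often divided into a neuronal-type and an immune-type class, and neither list moved as a block. Of 13 neuronal-type genes tested, 4 were higher in GB-pos and 3 in SI-pos (53.8% called beside 23.7% of all genes). The median log2 difference was 0.47. Nrep, a gene of neuronal regeneration, stood at 246, 219.8 and 229 CPM in GB-pos and 0.377, 0.0802 and 1.18 CPM in SI-pos (log2 difference 8.73 ± 0.73 SE, adjusted p = 8.32e-06). Dpysl3, which encodes a collapsin response mediator of growing axons, stood at 68, 124 and 96.9 CPM in GB-pos and 0.0755, 0 and 0.649 CPM in SI-pos, with 51.7 CPM in GB-neg. Both were close to absent from the intestinal IL-25+ cells, whereas Basp1, a growth cone protein gene, went the other way, at 29.5, 48.5 and 25.7 CPM in GB-pos and 144, 178 and 203 CPM in SI-pos. Of 16 immune-type genes tested, 4 were higher in SI-pos and 2 in GB-pos (37.5% called beside 23.7% of all genes), with a median of -1.04. Without GB-neg 1 or GB-neg 3 the count in SI-pos was 7, and without GB-pos 2 or any 1 SI-pos library that in GB-pos was 1. Ptprc, which encodes the leukocyte antigen CD45, stood at 495, 489.9 and 571 CPM in GB-pos and 932, 919.6 and 1224 CPM in SI-pos and did not pass (adjusted p = 0.322). Under 2 of 22 alternatives Ptprc passed, and its log2 difference stayed between -1.07 and -0.83.

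The 8 genes with the highest CPM among those at least 4-fold higher in GB-pos included Dmbt1, Egr1, Zbtb20, Clu, Amot, Lcp1 and Dusp1. Zbtb20, a zinc finger repressor gene, stood at 887, 952 and 893 CPM in GB-pos and 209.8, 195 and 180.2 CPM in SI-pos (log2 difference 2.22 ± 0.23 SE, adjusted p = 2.41e-05, edgeR). Clu, the clusterin chaperone gene, stood at 709, 904 and 830.4 CPM in GB-pos and 2.0, 1.89 and 6.77 CPM in SI-pos, and Dmbt1, a secreted scavenger receptor gene of mucosal surfaces, at 2507, 5486 and 4141 CPM and 1173, 474 and 233 CPM. No group overlapped, but Clu and Dmbt1 were far higher in GB-neg, at 12.8% and 8.86% of which GB-pos stood, near the 7.29% to 11.6% of gallbladder epithelial genes. The corresponding 8 genes towards SI-pos were mt-Co1, Cd24a, Cdhr5, Krt18, Fabp1, H2-K1, B2m and H2-D1, among them H2-D1, a class I heavy chain gene, at 983, 940.4 and 692 CPM in GB-pos and 3318, 3741 and 5630 CPM in SI-pos.

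The gallbladder cells carried transcripts that neither their neighbours nor the intestinal IL-25+ cells held at comparable levels. Several of the genes given here were chosen after their values were seen, from those higher in GB-pos with a mean at least 4 times that of GB-neg. Lcp1, which encodes the actin-bundling plastin of leukocytes, stood at 545, 628 and 546 CPM in GB-pos and 4.08, 1.08 and 14.2 CPM in SI-pos (log2 difference 6.47 ± 0.76 SE, adjusted p = 0.000184, edgeR). Amot, which encodes the Hippo pathway scaffold angiomotin, stood at 674, 743 and 582 CPM and 91.1, 93.8 and 133 CPM. Agt, the angiotensinogen gene, stood at 488, 458 and 359 CPM in GB-pos and 10.8, 13 and 16.4 CPM in SI-pos, with 2.40, 3.57 and 1.17 CPM in GB-neg. Tek, the angiopoietin receptor gene, stood at 239.8, 358 and 324 CPM in GB-pos and 9.81, 5.58 and 9.61 CPM in SI-pos. For none of these 4 did any library of one organ overlap with the other.

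Guidance, adhesion and lipid genes were among the same set. Wnt5a, a non-canonical Wnt ligand gene, stood at 169, 255 and 186 CPM in GB-pos and 0.0377, 1.04 and 1.14 CPM in SI-pos (log2 difference 8.11 ± 0.75 SE, adjusted p = 1.7e-05). Abca1, the cholesterol efflux transporter gene, stood at 182, 238 and 211 CPM in GB-pos and 1.43, 1.89 and 2.31 CPM in SI-pos, a difference of 6.81 ± 0.53 SE on the log2 scale. Both had GB-neg means well below GB-pos, 27.4 CPM and 41.1 CPM. Pcdh20, a protocadherin gene, stood at 335, 625 and 434 CPM in GB-pos and 16.6, 3.61 and 22.8 CPM in SI-pos, and its adjusted p of 0.0158 rose to 0.0823 at most when libraries were left out or replicate numbers were nested in tissue. Cd79b, a B cell receptor component gene, stood at 29, 25.7 and 26.5 CPM in GB-pos and 0.189, 0.161 and 0.203 CPM in SI-pos. It was the one gene called of 5 tested in the B and plasma cell list, whose summed level was 29.1, 39.2 and 26.5 CPM in GB-pos and 2.04, 2.77 and 147 CPM in SI-pos, where SI-pos 3 stood apart. The 10 largest fitted differences in this direction, among called genes that reach 10 CPM, were those of Sema3a, Kcnq3, 9530052E02Rik, Fjx1, Cdh2, Adamts7, Sox7, Togaram2, Trhde and Mr1. Sema3a, a semaphorin gene, had no count in SI-pos and stood at 5.26, 15.6 and 12.9 CPM in GB-pos, at least 278-fold higher. Cdh2, the N-cadherin gene, stood at 13.5, 15.7 and 15.7 CPM in GB-pos against 1 count in all of SI-pos, a count ratio of 1136 (95% interval 204 to 44906). Fjx1, Sox7 and Mr1 were as high in GB-neg, with means of 22.3, 8.43 and 22.6 CPM, so their difference was not limited to the IL-25+ gate.

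The 10 largest fitted differences towards SI-pos were those of Gm10564, Cst6, Nat8, Slc18a3, H2-Q7, Heph, Etos1, Apol9b, 1700081H04Rik and Apol7a. Cst6, a cystatin protease inhibitor gene, stood at 0.0290, 0 and 0 CPM in GB-pos and 46.7, 83.7 and 94.5 CPM in SI-pos, with 3.03, 4.87 and 4.14 CPM in SI-neg; the count ratio was 7322 (95% interval 1314 to 289236). Heph, which encodes the ferroxidase hephaestin, stood at 1.07, 0.148 and 0.162 CPM in GB-pos and 593, 595 and 854 CPM in SI-pos (log2 difference -10.49 ± 1.43 SE, adjusted p = 0.000688). Etos1 and 1700081H04Rik were close to absent outside SI-pos, where they stood at 23.8, 36 and 39.5 CPM and 38.6, 35 and 56.9 CPM. Nat8, an acetyltransferase gene, had no count in GB-pos and was at least 428-fold higher in SI-pos, but SI-pos was at 36.1% of SI-neg. Among abundant genes, Krt18, a simple epithelial keratin gene, stood at 2482, 1760 and 2004 CPM in GB-pos and 8128, 11146 and 10660 CPM in SI-pos (log2 difference -2.26 ± 0.30 SE, adjusted p = 0.00017). Cdhr5, which encodes a protocadherin of brush border microvilli, stood at 2850, 3417 and 2497 CPM in GB-pos and 10611, 12015 and 14765 CPM in SI-pos, in each organ above the IL-25- mean of 77 and 1654 CPM. Sema5b, a semaphorin gene, stood at 7.23, 9.76 and 12.5 CPM in GB-pos and 109, 289 and 165 CPM in SI-pos against 0.126 CPM in SI-neg.

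Transcription factors of organ position differed in both directions. Of 30 tested positional and intestinal factors, 12 were higher in SI-pos and 8 in GB-pos, and of 27 biliary factors 16 were higher in GB-pos and 2 in SI-pos, with median log2 differences of -0.39 and 1.88. Cdx2, the homeobox factor gene that specifies intestine, stood at 0.116, 0.0742 and 0.135 CPM in GB-pos and 26.7, 33.3 and 31.5 CPM in SI-pos (log2 difference -8.06 ± 1.09 SE, adjusted p = 0.000217). SI-pos lay at 79.9% of SI-neg for Cdx2, above the 24.2% to 35.8% of enterocyte genes. Gata4, a factor gene of proximal intestine, stood at 0.0290, 0.223 and 0.0808 CPM in GB-pos and 72.4, 55.6 and 55.2 CPM in SI-pos, 48.2% of SI-neg. Tbx3, a T-box factor gene, stood at 2.03, 3.08 and 2.02 CPM in GB-pos and 209.6, 260.3 and 343 CPM in SI-pos, 126% of SI-neg. Hnf4a, a nuclear receptor gene shared by intestine and liver, differed less, at 474, 422 and 313 CPM and 848, 792 and 837 CPM (adjusted p = 0.0101, and 0.0508 without GB-pos 3), while its intestinal paralog Hnf4g stood at 1.16, 7.09 and 7.48 CPM and 113, 84.6 and 77.6 CPM. No library of GB-pos overlapped with SI-pos for these 5.

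On the biliary side, Sox17, the factor gene required for gallbladder formation, stood at 44.2, 44.8 and 44.2 CPM in GB-pos and 0.0377, 0.0802 and 0.608 CPM in SI-pos (log2 difference 7.52 ± 1.04 SE, adjusted p = 0.000427). GB-pos lay at 39.3% of GB-neg, above the medians of 7.29% to 11.6% and the highest upper quartile of 22.4% of gallbladder epithelial genes. Glis3, a zinc finger factor gene of bile ducts, stood at 247, 272 and 242 CPM in GB-pos and 29.8, 9.99 and 10.9 CPM in SI-pos, 73.1% of GB-neg. Meis2, a homeobox cofactor gene, stood at 51.8, 46.7 and 68.9 CPM in GB-pos and 1.06, 0.241 and 0.932 CPM in SI-pos, 58.5% of GB-neg. Onecut1 and Hhex, hepatobiliary homeobox genes, stood lower against their neighbours, at 15.8% and 16.2% of GB-neg. Both lie within the 5.17% to 22.4% spanned by the quartiles of gallbladder epithelial genes. Spdef differed from these: this secretory lineage factor gene stood at 19.4, 15.5 and 10.5 CPM in GB-pos and 0.528, 0.0802 and 0.892 CPM in SI-pos, with means of 1.01 CPM in GB-neg and 21.4 CPM in SI-neg, so its direction was opposite in IL-25- epithelium (interaction adjusted p = 0.000621).

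HOX genes, which record position along the body axis, were called in 1 direction. Of 39 HOX genes, 14 had enough counts to test. Of these, 11 were higher in SI-pos and none in GB-pos, with a median log2 difference of -6.59. The summed level of the 39 was 77.6 to 117.8 CPM in SI-pos and 2.34 to 6.39 CPM in GB-pos. Members could thus pass the count filter mainly through SI-pos, and their single direction is not independent of it. With no filter 27 were fitted and 7 were higher in SI-pos. With the filter, the count of 11 fell to between 4 and 7 when any 1 of the 6 IL-25+ libraries was left out. Hoxa3 stood at 0.784, 0.148 and 0.242 CPM in GB-pos and 37.9, 65.8 and 32 CPM in SI-pos (log2 difference -6.82 ± 0.76 SE, adjusted p = 4.28e-05). Hoxa5 stood at 0.320, 1.11 and 0 CPM in GB-pos and 12.1, 13.4 and 16.1 CPM in SI-pos, and its call ended without GB-pos 1, SI-pos 2 or SI-pos 3 (adjusted p up to 0.0713). Hoxa2, Hoxb4, Hoxb5 and Hoxb6 had no count in any GB-pos library, and the call of Hoxb5 ended without SI-pos 2 (adjusted p = 0.066). For Hoxa2, at 4.75, 7.38 and 12.2 CPM in SI-pos, the difference was at least 264-fold. SI-pos exceeded SI-neg for these: the SI-neg mean was 1.97 CPM for Hoxa3 and 0.493 CPM for Hoxa2.

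**Figure D3:**
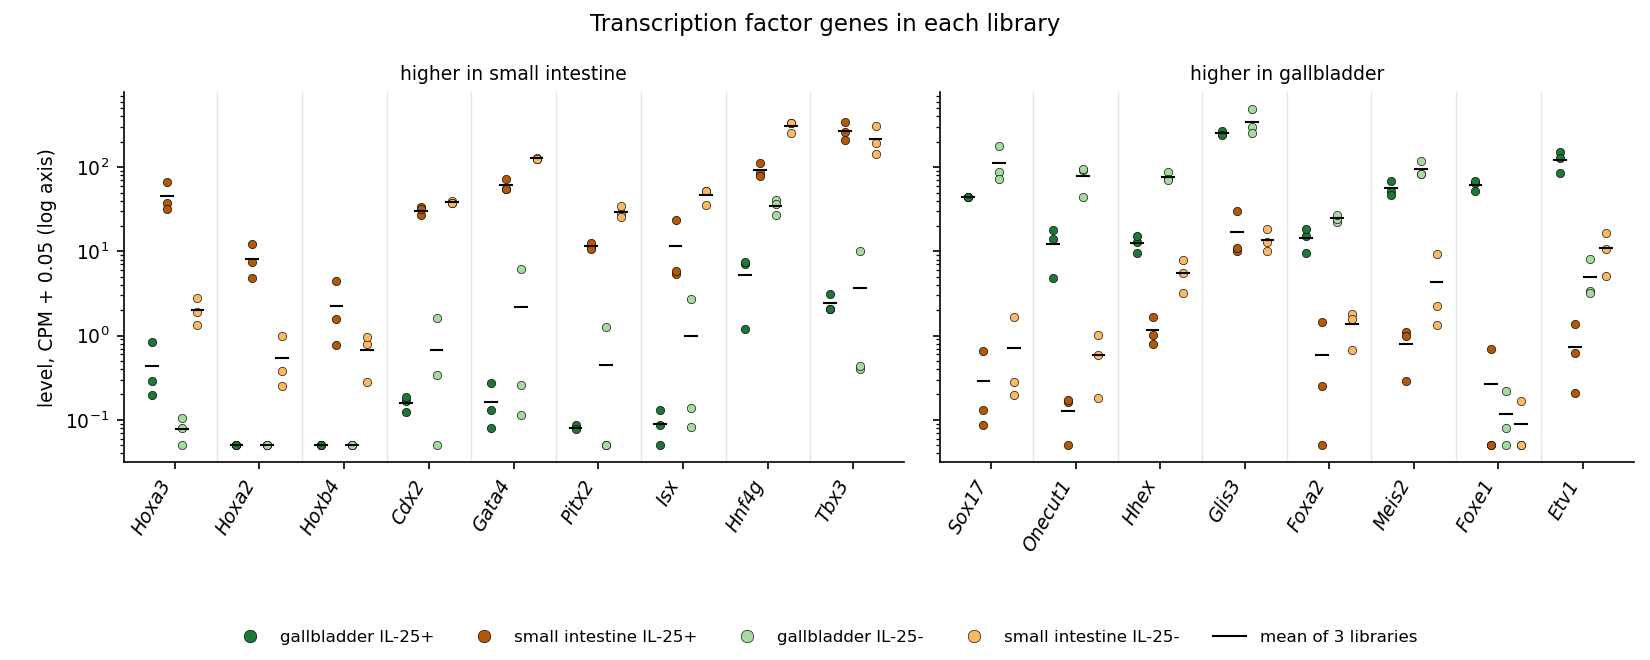
CPM plus 0.05 of transcription factor genes on a log axis in each GB-pos, SI-pos, GB-neg and SI-neg library, 1 point per library, with a bar at the mean of 3. Cdx2, Gata4 and Hoxa3 are high in SI-pos and near the floor in GB-pos, while Sox17, Glis3 and Meis2 show the reverse.

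Antigen presentation genes were lower in gallbladder IL-25+ cells, and by their list medians in gallbladder IL-25- epithelium too. Of 20 tested genes of MHC class I and peptide loading, 14 were higher in SI-pos and none in GB-pos. Their median log2 difference was -2.68, beside -2.1 between GB-neg and SI-neg. The summed level of the list was 1160 to 1541 CPM in GB-neg and 3291 to 4439 CPM in SI-neg. The interaction test also passed for 6 of the 14. B2m, the light chain gene of class I molecules, stood at 174, 228 and 259.6 CPM in GB-pos and 3776, 4520 and 4927 CPM in SI-pos (log2 difference -4.32 ± 0.29 SE, adjusted p = 1.63e-06). H2-K1, a classical class I heavy chain gene, stood at 514, 718 and 711 CPM in GB-pos and 4651, 5761 and 7584 CPM in SI-pos (log2 difference -3.21 ± 0.24 SE, adjusted p = 2.97e-06). For both, every intestinal library was several-fold above every gallbladder library, and SI-pos exceeded SI-neg, whose means were 1299 CPM and 1135 CPM. Nlrc5, which encodes the transactivator of class I genes, stood at 0.0581, 0.445 and 0.0269 CPM in GB-pos and 34.9, 65.3 and 51.9 CPM in SI-pos. Tap1, a peptide transporter gene, and Psmb8, an immunoproteasome subunit gene, were higher in SI-pos by log2 differences of -2.67 and -2.69. Class I heavy chain genes such as H2-Q7 and H2-Q4 are close copies of one another, so reads may be divided among them.

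All 7 tested genes of MHC class II were higher in SI-pos, with a median log2 difference of -7.10. Between GB-neg and SI-neg the median was -5.4, and 1 of the 7 also passed the interaction test. Cd74, the invariant chain gene, stood at 1.86, 2.93 and 1.29 CPM in GB-pos and 243, 247 and 119.7 CPM in SI-pos, and H2-Aa, an alpha chain gene, at 0.0290, 0.111 and 0.0269 CPM and 17.2, 15.8 and 13.4 CPM. Here SI-pos stood below SI-neg, at 20.2% for Cd74 and 26.1% for H2-Aa, beside the 24.2% to 35.8% of enterocyte genes. The part of enterocyte RNA in the class II difference was not tested.

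**Figure D4:**
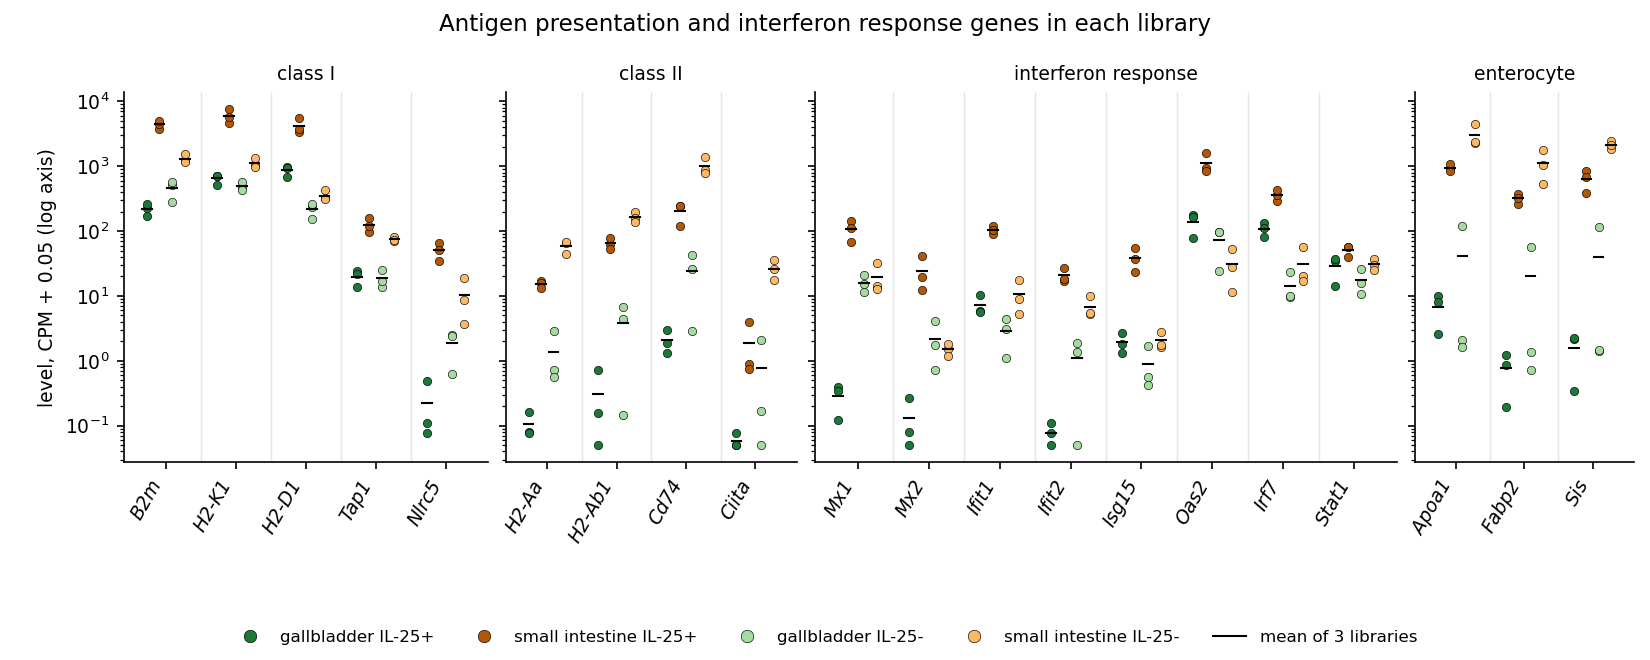
CPM plus 0.05 of MHC class I, MHC class II, interferon response and enterocyte genes on a log axis in each GB-pos, SI-pos, GB-neg and SI-neg library, 1 point per library, with a bar at the mean of 3. For B2m and H2-K1 SI-pos is above SI-neg, for Cd74 and H2-Aa below it, and GB-pos is the lower of the IL-25+ groups by its mean throughout.

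Genes of the interferon response were also lower in GB-pos. Of 25 tested, 16 were higher in SI-pos and none in GB-pos, with a median log2 difference of -2.69. Mx1, an antiviral GTPase gene, stood at 0.348, 0.0742 and 0.296 CPM in GB-pos and 67.6, 143 and 112 CPM in SI-pos (log2 difference -8.75 ± 0.64 SE, adjusted p = 2.6e-06). It was also higher than in SI-neg, at 14, 32.5 and 12.9 CPM, while GB-neg held 11.3, 21 and 15.5 CPM. Ifit1, which encodes a sensor of viral RNA caps, stood at 5.84, 5.68 and 10.3 CPM in GB-pos and 90.2, 120.1 and 105 CPM in SI-pos, and Isg15, a ubiquitin-like protein gene, at 1.28, 1.78 and 2.67 CPM and 23.8, 54.5 and 37.2 CPM. Oas2, an oligoadenylate synthetase gene, stood at 79.4, 174 and 164 CPM in GB-pos and 955, 1574 and 853 CPM in SI-pos. Factor genes of the pathway differed by less, with log2 differences of -1.72 for Irf7, -1.21 for Irf9 and -0.70 for Stat2. The calls of these 3 ended when some single IL-25+ libraries were left out, with adjusted p of at most 0.0785, 0.0625 and 0.157, and that of Stat2 also with relative log expression factors and with DESeq2.

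Promoters of members that moved together are printed because the letters of an interferon motif can be read in them. Each line gives 250 bases before the RefSeq start (GRCm38.p6), 5′ to 3′ on the gene's strand, with matches to the interferon-stimulated response element (ISRE, 2 copies of GAAA in the same direction with 2 free bases between) on either strand in capitals. The motif was chosen after the expression values were seen. The first is B2m at chr2:122147437-122147686 (plus strand), then Ifit1 at chr19:34640639-34640888 (plus strand) and Isg15 at chr4:156200819-156201068 (minus strand).
B2m: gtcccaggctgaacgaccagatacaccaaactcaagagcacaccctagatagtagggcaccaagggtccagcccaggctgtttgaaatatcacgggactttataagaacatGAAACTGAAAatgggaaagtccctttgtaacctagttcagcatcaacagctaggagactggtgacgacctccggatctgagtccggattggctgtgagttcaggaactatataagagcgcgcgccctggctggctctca
Ifit1: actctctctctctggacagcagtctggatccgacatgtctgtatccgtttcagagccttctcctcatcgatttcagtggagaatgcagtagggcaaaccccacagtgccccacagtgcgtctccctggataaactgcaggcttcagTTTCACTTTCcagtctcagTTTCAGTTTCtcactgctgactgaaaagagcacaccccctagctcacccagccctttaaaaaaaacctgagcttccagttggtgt
Isg15: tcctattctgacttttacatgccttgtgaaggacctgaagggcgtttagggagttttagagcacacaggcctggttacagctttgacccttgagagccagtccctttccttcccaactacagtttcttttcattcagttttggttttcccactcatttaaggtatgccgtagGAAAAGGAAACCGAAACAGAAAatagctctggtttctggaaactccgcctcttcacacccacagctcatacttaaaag
The B2m window holds 1 match, the Ifit1 window 2, and the Isg15 window 3 overlapping ones. Over windows that also take in the 50 bases after the start, 12 of 21 promoters of interferon list genes held a match (57.1%), as did 3 of 17 of class I list genes (17.6%). The share was 4.5% of promoters of genes higher in SI-pos, 2.73% for genes higher in GB-pos and 3.03% for all genes tested. A match is a description of letters and shows no binding.

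Absorptive genes were the largest block on the intestinal side. Of 45 tested enterocyte genes, 43 were higher in SI-pos and none in GB-pos, with a median log2 difference of -7.56. Sis, the sucrase-isomaltase gene, stood at 0.290, 2.15 and 2.18 CPM in GB-pos and 858, 688 and 385 CPM in SI-pos, and Apoa4, an apolipoprotein gene, at 0.378, 1.19 and 1.21 CPM and 428, 427 and 357 CPM. SI-pos was at 29.9% of SI-neg for Sis and 33.4% for Apoa4. Fabp1, a fatty acid-binding protein gene, differed from these: SI-pos held 5129, 7788 and 7765 CPM, SI-neg 514, 1018 and 752 CPM and GB-pos 25.5, 11.9 and 25.1 CPM (log2 difference -8.37 ± 0.91 SE, adjusted p = 0.000121). Fabp1 was thus higher in the intestinal IL-25+ cells than in their neighbours, in every library.

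The promoters of Fabp1 and of Alpi, the intestinal alkaline phosphatase gene, are shown for the letters of intestinal factors. Windows, build and direction are as above. In Fabp1, at chr6:71199629-71199878 (plus strand), capitals mark TTTATGG on either strand, a CDX-type motif. In Alpi, at chr1:87101607-87101856 (minus strand), capitals mark CAAAGTCCA, an HNF4-type motif, near the 3′ end, and the ISRE on the opposite strand nearer the 5′ end.
Fabp1: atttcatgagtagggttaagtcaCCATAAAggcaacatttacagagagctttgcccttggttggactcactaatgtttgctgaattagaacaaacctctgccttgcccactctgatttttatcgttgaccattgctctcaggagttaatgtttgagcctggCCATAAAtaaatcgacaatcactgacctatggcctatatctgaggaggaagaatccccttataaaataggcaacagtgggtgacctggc
Alpi: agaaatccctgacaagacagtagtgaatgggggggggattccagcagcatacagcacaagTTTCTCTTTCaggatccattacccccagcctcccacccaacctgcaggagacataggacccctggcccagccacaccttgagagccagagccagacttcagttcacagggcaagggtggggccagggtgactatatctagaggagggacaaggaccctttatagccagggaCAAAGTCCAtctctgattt
Alpi stood at 0.348, 0.817 and 1.61 CPM in GB-pos and 245, 212 and 262 CPM in SI-pos. The HNF4-type letters were in 1.53% of 2089 promoters of genes higher in SI-pos, 0.455% of 1760 of genes higher in GB-pos and 0.485% of all 14837. The CDX-type letters were in 2.35%, 1.31% and 1.81% of the same sets, and ATTGTT, a SOX-type motif, in 7.18%, 5.97% and 6.15%. AGATAA, a motif of GATA type, was in 8.09%, 6.53% and 7.12%, and the palindromic HNF1-type motif in 0.0957%, 0.17% and 0.0674%.

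Gallbladder epithelial genes and bile transporters were called in both directions. Of 32 tested gallbladder and cholangiocyte identity genes, 14 were higher in GB-pos and 7 in SI-pos (median log2 difference 1.16). Muc1, a membrane mucin gene, stood at 394, 651 and 426 CPM in GB-pos and 1.89, 3.17 and 7.26 CPM in SI-pos, and GB-pos was at 8.74% of GB-neg. Cldn2, a claudin gene of leaky junctions, stood at 238, 280.2 and 225 CPM in GB-pos and 48.6, 14.7 and 18.1 CPM in SI-pos, 6.64% of GB-neg. The transcript of the surface protein used in the sort differed, with Epcam at 1604, 1604 and 1521 CPM in GB-pos and 3174, 3314 and 4103 CPM in SI-pos (log2 difference -1.16 ± 0.16 SE, adjusted p = 0.000242). The protein was not measured here. Of 29 tested transporter genes of bile acids and the biliary tree, 11 were higher in SI-pos and 6 in GB-pos, and 6 of these 17 also passed the interaction test; the count in SI-pos was 6 or 7 without GB-pos 2, GB-pos 3 or SI-pos 2. Abcg5 and Abcg8, the paired sterol exporter genes, were low in GB-pos, at 0.0290, 0.334 and 0.511 CPM and 0.0290, 0.297 and 0.0808 CPM, against 27.6, 30.4 and 19.9 CPM and 57.5, 38 and 46.4 CPM in SI-pos. Slc10a2, the apical bile acid uptake transporter gene, stood at 1.31, 6.09 and 0.835 CPM in GB-pos and 0, 0.0401 and 0.122 CPM in SI-pos, 5.92% of GB-neg. Cyp27a1, which encodes a sterol hydroxylase of bile acid synthesis, belonged to the sorted gallbladder cells, at 76.3, 50.6 and 58.4 CPM in GB-pos against 3.70, 2.29 and 1.74 CPM in SI-pos and 1.52, 2.42 and 1.14 CPM in GB-neg (log2 difference 4.58 ± 0.44 SE, adjusted p = 1.41e-05).

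Drug and retinoid metabolism split by organ. Of 39 tested genes, 18 were higher in SI-pos and 6 in GB-pos, with a median log2 difference of -1.69. Gstm3, a glutathione transferase gene, stood at 0.261, 0.668 and 0.996 CPM in GB-pos and 87.4, 78.4 and 101 CPM in SI-pos, and Cyp4f14, a cytochrome P450 gene, at 26.8, 31.3 and 28.2 CPM and 249, 238 and 215 CPM. Sult1c2, a sulfotransferase gene, was on the other side, at 51.3, 62.2 and 66.5 CPM in GB-pos and 0.415, 0.0401 and 0.324 CPM in SI-pos. Among 32 glycosyltransferase genes, 10 were higher in SI-pos and 2 in GB-pos (37.5% called beside 23.7% of all genes). St6galnac6, a sialyltransferase gene, stood at 28.8, 54.5 and 13.4 CPM in GB-pos and 387, 486 and 563 CPM in SI-pos, where SI-neg held a mean of 3.46 CPM. Its call, at adjusted p = 0.0284, ended when any 1 IL-25+ library was left out. St6gal1, another sialyltransferase gene, was higher in GB-pos, at 43, 60.1 and 54.8 CPM against 0.528, 0.0401 and 0.892 CPM.

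Ion channel and ligand genes gave a mixed picture. Of 34 tested ion channel and transport genes, 8 were higher in SI-pos and 4 in GB-pos (35.3% called beside 23.7% of all genes). The count in GB-pos was 2 without SI-pos 1 or SI-pos 2. Kcnj16, an inward rectifier potassium channel gene, stood at 0.145, 1.23 and 0 CPM in GB-pos and 101, 142 and 44.4 CPM in SI-pos. Kcnn4, a calcium-activated potassium channel gene, stood at 124, 43.1 and 77.4 CPM in GB-pos and 5.21, 4.05 and 5.63 CPM in SI-pos. Among 35 ligand genes of the EGF, Wnt, BMP, FGF and Notch families, 11 were higher in GB-pos and 2 in SI-pos. The share called was 37.1% beside 23.7% of all genes. Without GB-pos 3 or SI-pos 1 the count in SI-pos was 1. Nrg4, a neuregulin gene, stood at 139, 175 and 179 CPM in GB-pos and 23.7, 31 and 36.9 CPM in SI-pos, and Fgf1, a fibroblast growth factor gene, at 75.9, 74.1 and 96.8 CPM and 7.13, 2.57 and 8.72 CPM. Both were above the GB-neg means of 9.94 and 7.89 CPM. Hbegf, another ligand gene of the EGF family, stood at 27.7, 25.6 and 50.6 CPM in GB-pos and 4.38, 2.97 and 9.53 CPM in SI-pos, below the 515 CPM of GB-neg.

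**Figure D5:**
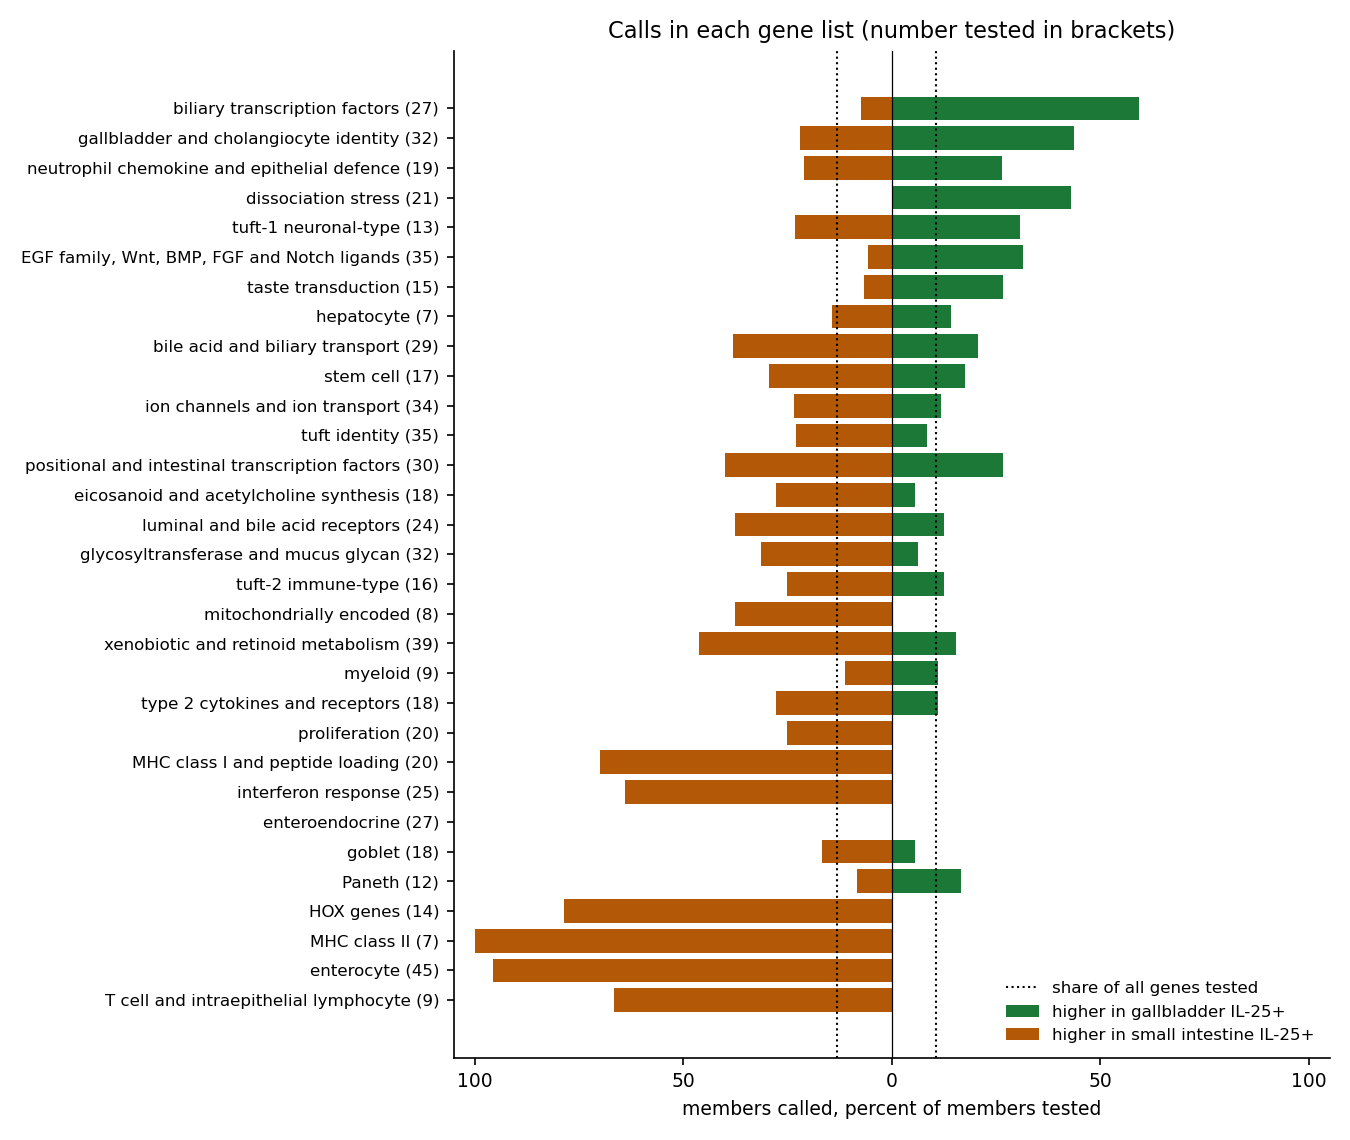
For each gene list with at least 7 tested genes, the number of genes higher in GB-pos (right) and higher in SI-pos (left) as a percentage of the genes tested, from edgeR at an adjusted p of 0.05; the vertical lines mark the percentages over all tested genes, 10.5% and 13.1%. Enterocyte, HOX, MHC and interferon lists extend to the left and biliary transcription factors to the right.

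Immediate early genes, which respond to tissue handling among other stimuli, were higher in the gallbladder. Of 21 tested dissociation stress genes, 9 were higher in GB-pos and none in SI-pos (median log2 difference 0.81). Egr1 stood at 1119, 1183 and 1091 CPM in GB-pos and 39.5, 42 and 38.4 CPM in SI-pos (log2 difference 4.82 ± 0.29 SE, adjusted p = 6.91e-07), and Fosb at 235, 391 and 442 CPM and 9.47, 22.6 and 36.4 CPM. The IL-25- epithelium was ordered the same way, with Egr1 means of 6509 CPM in GB-neg and 580.1 CPM in SI-neg. Whether handling, tissue or the HDM AF647 label goes with this cannot be told apart in this design. Of 19 tested genes of chemokines and epithelial defence, 5 were higher in GB-pos and 4 in SI-pos. Tnfaip3, an inhibitor gene of NF-kB signalling, stood at 11.2, 16.4 and 12.4 CPM in GB-pos and 72.2, 94.1 and 76.7 CPM in SI-pos, the reverse of the IL-25- groups, which had means of 101 CPM in GB-neg and 17.6 CPM in SI-neg. Tlr2, a receptor gene for bacterial lipoproteins, stood at 2.88, 14.5 and 11.2 CPM in GB-pos and 0.0755, 0 and 0 CPM in SI-pos, with 132 CPM in GB-neg.

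Markers of other cells were counted in the same way. Of 20 tested proliferation genes, 5 were higher in SI-pos and none in GB-pos, and 3 were without GB-pos 1, SI-pos 1 or SI-pos 3; Top2a stood at 10.4, 11.9 and 2.99 CPM in GB-pos and 57.3, 35.7 and 45.5 CPM in SI-pos, with 199 CPM in SI-neg. Of 9 tested T cell genes, 6 were higher in SI-pos, but only 2 without SI-pos 3 and 3 without any 1 GB-pos library. The summed level of the T cell list was 2.85 to 13.5 CPM in GB-pos and 7.86 to 84.0 CPM in SI-pos. None of 27 tested enteroendocrine genes passed in edgeR, although 1 intestinal library stood apart, with Gcg at 94.7, 0.241 and 0.405 CPM in SI-pos; at an unadjusted p under 0.05 edgeR counted 5. DESeq2 called 4 of the list higher in SI-pos and 1 in GB-pos, limma-voom 2 in SI-pos, and edgeR without GB-neg 1 called 3 in SI-pos and 1 in GB-pos. Among 18 goblet genes 3 were higher in SI-pos and 1 in GB-pos, 22.2% called and so near the 23.7% of all genes. The count in SI-pos was 8 with DESeq2, 1 without GB-pos 1 or GB-pos 3 and 5 without SI-pos 2 or GB-neg 1. That in GB-pos was 2 with DESeq2 and without GB-pos 3, SI-pos 3 or GB-neg 3. Muc2, the secreted mucin gene, stood at 3.05, 7.91 and 12.9 CPM in GB-pos and 40.5, 81.8 and 171 CPM in SI-pos (adjusted p = 0.104). Under 4 of 22 alternatives Muc2 passed. Of the 8 tested mitochondrially encoded genes 3 were higher in SI-pos, among them mt-Co1, a subunit gene of cytochrome c oxidase, at 7660, 15042 and 11952 CPM in GB-pos and 58832, 59526 and 29792 CPM in SI-pos. The count was 7 without GB-neg 3.

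For 180 genes the organs differed in opposite directions in the IL-25+ and IL-25- gates, 63 of them higher in GB-pos and 117 higher in SI-pos. Ank, a pyrophosphate transporter gene, stood at 135, 228 and 180.2 CPM in GB-pos and 31.4, 22.5 and 32.1 CPM in SI-pos, while GB-neg held 5.04, 3.04 and 5.72 CPM and SI-neg 32.4, 31.9 and 34.9 CPM (interaction adjusted p = 1.04e-05, edgeR). Lyrm9, a gene of a mitochondrial LYR motif protein, stood at 122, 130.5 and 129 CPM in GB-pos and 10.8, 7.78 and 9.73 CPM in SI-pos, with 13.7, 24.7 and 16.2 CPM in GB-neg and 58, 65.2 and 48.9 CPM in SI-neg. In both, gallbladder led among IL-25+ cells and intestine among IL-25- cells, with no overlap in either gate. Myadm, a membrane protein gene of myeloid cells, was the reverse, at 452, 476 and 501 CPM in GB-pos, 1719, 2066 and 1903 CPM in SI-pos, 589, 518 and 407 CPM in GB-neg and 155, 171 and 119.9 CPM in SI-neg. Runx1, a haematopoietic transcription factor gene, stood at 172, 131 and 127 CPM in GB-pos and 204, 218 and 252 CPM in SI-pos, a log2 difference of -0.65 whose call ended under 12 alternatives, among them relative log expression factors, DESeq2, the replicate block and the loss of any 1 of 5 IL-25+ libraries or of GB-neg 2 (adjusted p up to 0.121), while GB-neg held 59.3, 58.9 and 60.3 CPM and SI-neg 6.17, 9.21 and 6.60 CPM. Of the 1536 interaction calls 39.3% were positive, meaning a tissue difference further towards gallbladder in IL-25+ cells, and 51.2% were with relative log expression factors.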

How the data were processed

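RNA of the sorted cells was amplified, made into Nextera XT libraries, which do not mark strand, and read as single-end 50 bp reads on a HiSeq 4000, per the labels' protocols and the series' design text. The authors deposited whole-number read counts per gene; STAR 2.7.2b, DESeq2 1.26 and GRCm38 are named, per the submitters' processing notes, without their settings. The annotation that the authors counted against is not given in the sources used here. Of 43432 gene identifiers, 42548 matched a GRCm38 annotation by identifier, which gave symbols; 884 did not. The table has 11 further columns that match no sample label, and they were not used.

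All 12 libraries, in 4 groups of 3, were fitted in edgeR 4.0.16 (R 4.3.3) with group as the only term, quasi-likelihood with robust dispersion, scaling by the trimmed mean of M-values and genes kept by edgeR's filter at a minimum count of 10. GB-pos was tested against SI-pos, GB-neg against SI-neg, and the difference of both as the interaction. Adjusted p-values are Benjamini-Hochberg values over 16636 genes with a threshold of 0.05, two-sided. CPM use the same scaling, and the error of a log2 difference is its absolute size divided by the square root of the F statistic. Where a group had no count, the bound on the fold puts 3 counts over the group in its place; with 1 to 3 counts, the ratio of counts has an exact 95% interval, and both cover counting error only. Promoter windows are from RefSeq (GRCm38.p6); 11627 of 16634 tested symbols matched, some with several windows.

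Genes were named by rule from the 10 largest fitted differences in each direction among called genes reaching 10 CPM without overlap, the 8 called genes of highest CPM and at least 4-fold change in each direction, the 4 members of lowest adjusted p in each of 36 gene lists and members called against their list's majority, the 5 genes of lowest interaction p in each direction that were also called, and Il25, Epcam, Sucnr1, Ffar3, Pou2f3 and Trpm5. Some genes that the rule names are not reported here. Other genes named were chosen after their values were seen. The members and lists were chosen with earlier results of these data known. Alternatives were scaling by relative log expression, the Wald test of DESeq2 1.42.0, voom with quality weights in limma 3.58.1, no filter and a stricter filter, the replicate number as a block, the IL-25+ libraries alone, removal of mitochondrial genes and removal of each library.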

Additional observations from a re-analysis of the deposited data

Results flagged for a closer look

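In these 29 named genes, each also called between GB-pos and SI-pos, the tissue difference in IL-25+ cells differed from that in IL-25- cells by the interaction term of edgeR's model (Benjamini-Hochberg adjusted over all tested genes, of which 9.23% passed). Values are GB-pos minus SI-pos less GB-neg minus SI-neg, on the log2 scale. A positive value places the IL-25+ difference further towards gallbladder.

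Positive values were found for Gpr35 at 7.58, Cyp27a1 at 7.31, Pclo at 7.20, Lcp1 at 6.47, Ank at 5.50, Lyrm9 at 5.41, Ffar3 at 2.86, Cdhr5 at 2.33, Amot at 1.41 and Egr1 at 1.34. The interaction call of Egr1 ended under 10 of 21 alternatives, among them the replicate block and the loss of any 1 IL-25+ library. Ffar3 and Cdhr5 were lower in GB-pos than in SI-pos all the same; their difference was larger still between the IL-25- groups. Pclo, which encodes a presynaptic scaffold protein, stood at 70.8, 83.4 and 91.2 CPM in GB-pos, 1.62, 0.642 and 1.14 CPM in SI-pos, 40.2, 24.7 and 39 CPM in GB-neg and 54.3, 102 and 56.5 CPM in SI-neg, so SI-pos alone was low. Togaram2 at 8.50, Adamts7 at 11.85 and 9530052E02Rik at 19.58 have groups at or near 0 counts, where the fitted size depends on the model's handling of zeros.

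Negative values were found for Ddah1 at -6.33, Cd24a at -5.91, Tnfaip3 at -5.11, Fabp1 at -4.45, Krt18 at -4.30, Myadm at -3.76, Runx1 at -3.67, B2m at -2.81, H2-K1 at -2.0 and H2-D1 at -1.59. Ddah1, which encodes an enzyme that degrades an inhibitor of nitric oxide synthesis, stood at 108, 117 and 101 CPM in GB-pos, 199.5, 201 and 222 CPM in SI-pos, 139.8, 134 and 179 CPM in GB-neg and 5.84, 1.70 and 3.20 CPM in SI-neg. Cst6 at -7.28, H2-Q7 at -6.79, Apol7a at -6.29, Apol9b at -8.99, Gm10564 at -12.10 and Slc18a3 at -12.33 again rest on groups at or near 0 counts. Without GB-neg 1, the library with intestinal transcripts, the interaction no longer passed for Cst6, Gm10564 and Slc18a3, with adjusted p of 0.198, 1 and 1.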

How the results depend on the processing

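Of 3938 genes called between GB-pos and SI-pos, 92.4% kept their call with relative log expression factors, 95.1% with DESeq2, 92.2% with limma-voom, 87.4% with the stricter filter and 83.5% with the IL-25+ libraries alone. DESeq2 called 4956 genes, limma-voom 4650 and no filter 3458. The share of calls higher in GB-pos was 44.5%, and 51.9% with DESeq2. Leaving out 1 library gave 2740 to 4157 calls, 1157 to 1823 of them higher in GB-pos and 1583 to 2334 higher in SI-pos, lowest in each case without SI-pos 2, for which 68.0% of the calls were kept. Interaction calls, 1536, ranged from 1050 without SI-pos 2 to 1566 without GB-neg 1, with 388 to 731 positive and 662 to 855 negative. DESeq2 gave 2364, of which 1221 were positive. Without GB-neg 1 and SI-neg 3 together, interaction calls numbered 1293, and 48.8% were positive beside 39.3%. The cause of these shifts was not tested.

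The replicate numbers are not said to mark a shared animal or day. Deviations of same-numbered GB-pos and SI-pos libraries from their group means correlated at -0.008, -0.024 and 0.006. Those of GB-pos and GB-neg correlated at 0.094, 0.019 and 0.162 for the same number and at -0.179 to 0.096 for unlike numbers. With 3 libraries a group, such values cannot show whether the numbers pair libraries. With the number as a replicate block the fit called 3540 genes (1340 for the interaction), and with the block nested in tissue 3511 (1296). The latter ended the call of Sis (adjusted p = 0.0591), among others.

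Of 131 genes named and called between GB-pos and SI-pos, 112 kept direction and call under all 22 alternatives and 19 lost the call under at least 1, with no change of sign. Beside those given with their values, Apoa1 lost it without any 1 GB-pos library (adjusted p up to 0.0584), Cd8a without SI-pos 3 (0.0847), Dusp1 without SI-pos 1 or SI-pos 3 (up to 0.0538), and Ddah1 under 14 alternatives (up to 0.13). Gnat3, not called, ranged from -0.625 without SI-pos 2 to 0.4006 without SI-pos 3, a change of sign. Interaction calls of Egr1, Togaram2, Apol9b, Fabp1, Ffar3, H2-D1 and H2-Q7 ended under at least 1 alternative, with adjusted p of at most 0.0758, 0.101, 0.0634, 0.0767, 0.359, 0.0579 and 0.0776.

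With 3 libraries a group, genes of few counts were called with wide errors, and a gene that did not pass is not shown to be equal. Tissue and the HDM AF647 label cannot be told apart in any of these fits. A count of 0 in all GB-pos libraries allows up to 3 counts over the group, whose libraries hold 23703449 to 30957874 counts each.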
